A study of Homo sapiens with 8 samples.

Results

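The 10 genes of glucose use described here were examined in human T-cell acute lymphoblastic leukemia (T-ALL) cells with and without an inhibitor of β-catenin signaling. These were 2 glucose transporters, SLC2A1 and SLC2A3, and 8 enzymes in pathway order, HK2, PFKP, ALDOA, GAPDH, PGK1, ENO1, PKM and LDHA. They were chosen by name as the 10 listed genes among the 57189 genes of the count files. RNA-seq was performed on T-ALL lines TIB153 and CUTLL1 (spelled CUTTL1 by the submitters), with control cells of each line set against cells given PKF118-310, a small molecule that disrupts the complex of β-catenin with TCF. The study used the same dose and duration in both lines, and all cells were grown in RPMI with serum. No transgene or knockdown was present. In the count files, each of the 4 groups was 1 library sequenced in 2 lanes. The lanes were summed, so a difference within a line had no replicate check there. The 2 lines served as the replicates of the treatment comparison.

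Glucose enters cells through facilitative transporters of the SLC2A family, and glycolysis then splits it into pyruvate in the cytosol. Lactate dehydrogenase turns pyruvate into lactate and regenerates the NAD+ that the GAPDH step consumes. Activated and leukemic T cells are known for high glucose uptake and lactate release, and MYC, AKT and the hypoxia-inducible factor HIF-1 are textbook activators of these genes.

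The 4 libraries held 7609427 to 8140391 reads counted in genes, and 3 reads corresponded to 0.369 to 0.394 CPM, which are reads scaled to the same total in every library. The 9 T-lineage markers were detected in every library, at a summed 1708 to 2407 CPM. Of the B-lineage markers, CD79A was read in all libraries (10.5 to 107 CPM), whereas MS4A1 had 0 reads in each. Myeloid markers summed to at most 0.642 CPM and erythroid markers to at most 0.128 CPM. More genes were detected with PKF118-310 than without it in CUTLL1 (21134 against 19674) and in TIB153 (22120 against 19719). Mitochondrial genes took 4.18% and 3.78% of reads in control and treated CUTLL1 cells, and 4.01% and 5.06% in TIB153. The part of these differences in the results below was not tested.

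Across the lines, 1 of the 10 genes rose and 4 fell with PKF118-310 (edgeR test, adjusted p threshold of 0.05). SLC2A3 rose, LDHA, HK2, PGK1 and PFKP fell, and SLC2A1, ALDOA, GAPDH, ENO1 and PKM did not pass the test. Among all 13280 genes tested, 6.11% rose and 6.78% fell, and with libraries scaled by total counts alone the split changed from 812 higher and 900 lower to 849 and 560. The median log2 change of the 10 genes was -0.38, and that of all genes tested was 0.0003. The scaling used here sets the all-gene median near 0, and it was 0.057 with total counts alone. The test rested on 2 lines and 1 residual degree of freedom, with the spread of each gene estimated together with that of other genes. In bulk RNA, a lower level in every cell and fewer cells with a high level cannot be told apart. The paper reports lower viability of both lines at the dose and duration used for this RNA. It also reports PARP cleavage, a sign of apoptosis, in treated cells of both lines. Whether cell death or stress had a part in the changes described here was not tested.

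Within each line, treated cells were compared with control cells by a log2 ratio and its 95% counting interval, which covers the counting of reads only. In CUTLL1, 2 of the 10 genes were higher beyond counting error (23.3% of all genes) and 7 were lower (23.9% of all genes). In TIB153, 2 were higher (25.2% of all genes) and 8 were lower (28.7% of all genes). The higher genes were SLC2A3 and PKM in CUTLL1, and SLC2A3 and ALDOA in TIB153. The lane row of ALDOA is uncertain, as described below. Reads narrow these intervals, so abundant genes passed more readily than scarce ones. At a limit of 2-fold, CUTLL1 had 1 gene higher, SLC2A3, against 4.8% of all genes, and 0 lower, against 2.21%. TIB153 had SLC2A3 higher, against 5.47%, and LDHA lower, against 2.12%. The log2 ratio was lower in TIB153 than in CUTLL1 for 9 of the 10 genes, all but ALDOA, against 52.7% of all genes. For 8 of the 9 the counting interval of that difference lay below 0, against 19% of all genes.

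**Figure D1:**
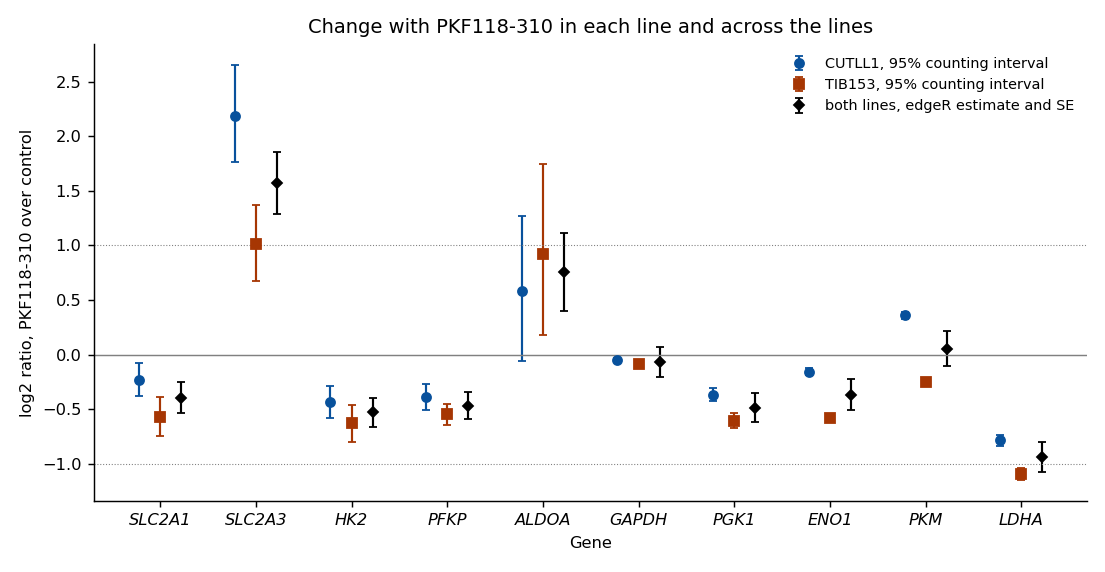
Log2 ratio of PKF118-310 over control for each of the 10 genes, with CUTLL1 as circles and TIB153 as squares (bars, 95% counting intervals) and the edgeR estimate across both lines as diamonds (bars, SE). Dotted lines mark 2-fold, which SLC2A3 passed upward in both lines and LDHA passed downward in TIB153, while PKM lay above 0 in CUTLL1 and below 0 in TIB153.

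SLC2A3 encodes GLUT3, a high-affinity glucose transporter of neurons and lymphocytes (chr12:7919230-7936275 in hg38, minus strand). It had 52 reads in control and 258 in treated CUTLL1 cells, or 6.83 and 32.4 CPM. TIB153 cells gave 100 and 221 reads, or 12.8 and 27.1 CPM. Both treated libraries were therefore above both control libraries. The ratio was 4.55-fold in CUTLL1 (log2 2.19, interval 1.76 to 2.66) and 2.02-fold in TIB153 (1.02, 0.67 to 1.37). The estimate across the lines was 1.57 ± 0.28 on the log2 scale (SE, n = 2 lines, edgeR adjusted p = 0.0075). SLC2A3 has a near-identical neighboring copy, SLC2A14, named here after its values were seen, which had 0 reads in 3 libraries and 2 in treated TIB153 cells, so reads shared by both copies may be missing from either row.

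SLC2A1 encodes GLUT1, the widespread basal glucose transporter (chr1:42925375-42959176, minus strand). Its level was 101 and 89.2 CPM in control and treated CUTLL1 cells, and 77.4 and 54.5 CPM in TIB153 cells. Treated cells were lower in both lines, but the treated CUTLL1 library lay above the control TIB153 library. The log2 ratios were -0.23 (-0.38 to -0.08) in CUTLL1 and -0.57 (-0.75 to -0.39) in TIB153, and the change across the lines did not pass the test (-0.39 ± 0.14, SE, edgeR adjusted p = 0.0836). Per kilobase of exon, SLC2A1 stood 19.3-fold above SLC2A3 in control CUTLL1 cells and 3.59-fold above it in treated cells. In TIB153 this ratio of levels was 7.86 in control and 2.62 in treated cells. By these counts SLC2A1 remained the more abundant transcript in all 4 libraries, though the SLC2A3 row may lack reads shared with SLC2A14.

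HK2 encodes hexokinase 2, which phosphorylates glucose and thereby retains it in the cell (chr2:74833981-74893359, plus strand). Its levels were 108 and 82.4 CPM in control and treated CUTLL1 cells, and 88.8 and 60.1 CPM in TIB153. Both treated libraries lay below both controls. The counting intervals of treated CUTLL1 (76.2 to 89.0 CPM) and control TIB153 (82.3 to 95.7 CPM) overlapped, however. HK2 fell by 0.53 on the log2 scale across the lines (SE 0.13, edgeR adjusted p = 0.0219), with ratios of -0.43 in CUTLL1 and -0.63 in TIB153. PFKP encodes the platelet isoform of phosphofructokinase, the committed step of glycolysis (chr10:3066333-3137712, plus strand). PFKP had 1340 and 1110 reads in CUTLL1 and 2164 and 1616 in TIB153, so both TIB153 libraries were above both CUTLL1 libraries. It fell by 0.47 across the lines (SE 0.12, edgeR adjusted p = 0.0247), with ratios of -0.39 and -0.55. The PFKP call ended with scaling by total counts (adjusted p = 0.0519), with the DESeq2 Wald test (0.115) and with lane 2 alone (0.0527), and that of HK2 with the DESeq2 Wald test (0.153) and lane 2 alone (0.0790).

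ALDOA encodes aldolase A, which cleaves fructose-1,6-bisphosphate (chr16:30064164-30070457, plus strand). Its row in the lane files was nearly empty. It held 33 and 54 reads in control and treated CUTLL1 cells, and 22 and 46 in TIB153. The log2 ratios were 0.59 (-0.06 to 1.27) and 0.92 (0.18 to 1.74), and the change across the lines did not pass the test (0.75 ± 0.36, edgeR adjusted p = 0.180). In the annotation whose gene names and coordinates the lane files share, 42.31% of the exonic bases of ALDOA also belong to a second gene, AC093512.2, which had 10 to 19 reads per library. The lane count of ALDOA is therefore uncertain.

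The deposited tables of called genes, which carry their own count columns (2 control and 2 treated columns per line), gave a different account of ALDOA. For CUTLL1, they gave 8434 and 8952 reads in the control columns and 8423 and 8028 in the treated columns. The TIB153 columns held 6634 and 6622 control reads and 5255 and 5308 treated reads. The control counts were 263 and 301 times those of the lane files. After scaling by the size factors recovered from these tables, the log2 ratio of ALDOA was -0.21 in CUTLL1 and -0.46 in TIB153, the opposite sign to the lane rows. The cause was not tested, and the contrast of transporters with enzymes is given below both with and without ALDOA.

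These tables listed 7 of the 10 genes for CUTLL1 and 9 for TIB153. A gene is in them only if the authors called it, so its direction there is no independent evidence and was not tested. For the 14 entries other than ALDOA, the mean control count was 0.913 to 1.31 times the lane count, and each ratio had the same sign as in the lane files, with a gap of at most 0.23 on the log2 scale. Between the 2 control columns, chi-square per degree of freedom was 2.88 in CUTLL1 and 2.24 in TIB153 (1 being counting noise), against 1.04 and 1.01 between the 2 lanes of the control libraries. The columns thus varied more than lanes of 1 library did and may be separate libraries, which the tables do not state. The paper's heatmap of these lines labels 2 control and 2 treated samples for each line, but does not link them to these columns.

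**Figure D2:**
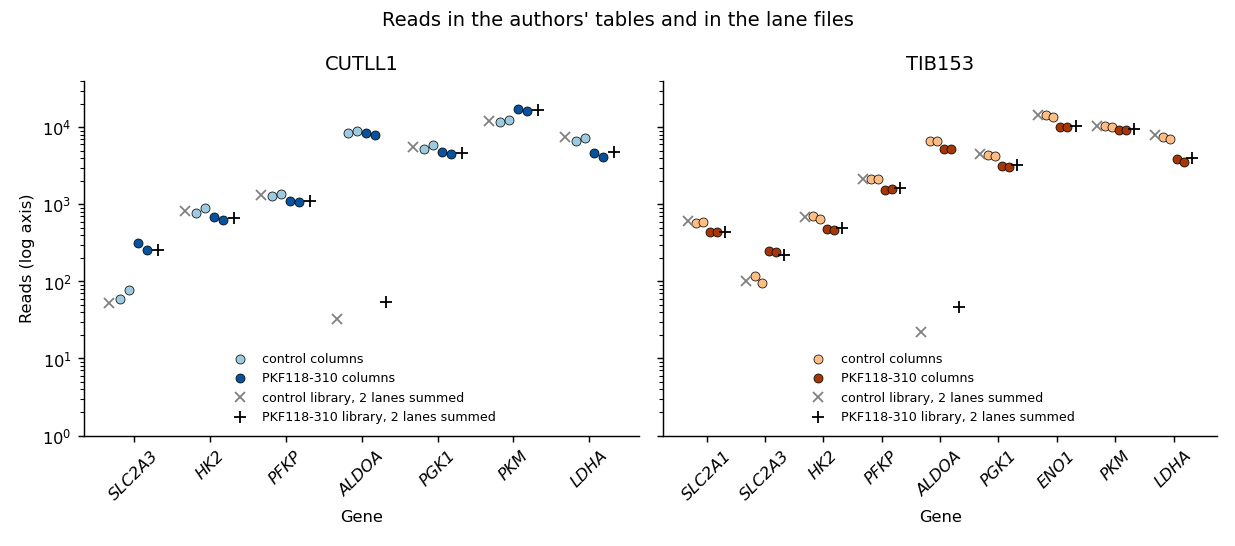
Reads per gene (log axis) for the listed genes in each line, with the authors' 2 control and 2 treated columns as filled circles and the lane-summed control and treated libraries as crosses and plus signs. ALDOA is the gene for which the sources part, with 33 lane reads against 8434 and 8952 table reads in control CUTLL1 cells.

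GAPDH, glyceraldehyde-3-phosphate dehydrogenase, was the most abundant of the 10 genes (chr12:6533927-6538374, plus strand). The control and treated libraries held 4795 and 4796 CPM in CUTLL1, and 3651 and 3588 CPM in TIB153. The lines differed more than the treatments did. Its change across the lines was -0.07 ± 0.14 (SE, edgeR adjusted p = 0.785), which did not pass the test. GAPDH supplied 41.1% to 49.2% of the reads of the 10 genes, which together took 1.06% and 1.04% of all reads in control and treated CUTLL1 cells, and 0.889% and 0.730% in TIB153.

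PGK1, phosphoglycerate kinase 1, makes ATP in the step after GAPDH (chrX:77910739-78129296, plus strand). Its levels fell from 736 to 590 CPM in CUTLL1 and from 582 to 400 CPM in TIB153, and the treated CUTLL1 library lay just above the control TIB153 library. Across the lines PGK1 fell by 0.48 on the log2 scale (SE 0.13, edgeR adjusted p = 0.0267), a call that ended with scaling by total counts (0.0539). ENO1 encodes enolase 1, which forms phosphoenolpyruvate (chr1:8861000-8879250, minus strand). ENO1 stood at 2101 and 1948 CPM in control and treated CUTLL1 cells, and at 1839 and 1288 CPM in TIB153 cells, so that treated CUTLL1 cells again lay above control TIB153 cells. Its ratio was -0.16 (-0.19 to -0.12) in CUTLL1 and -0.58 (-0.61 to -0.54) in TIB153, and the change across the lines did not pass the test (-0.37 ± 0.14, edgeR adjusted p = 0.110).

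PKM encodes the muscle-type pyruvate kinase that releases pyruvate (chr15:72199029-72231822, minus strand), and its gene count does not separate its M1 and M2 splice forms. PKM differed in direction between the lines. It stood at 1605 and 2128 CPM in control and treated CUTLL1 cells, a log2 ratio of 0.36 (0.33 to 0.39). TIB153 had 1343 and 1179 CPM, a ratio of -0.25 (-0.29 to -0.21). The change across the lines was 0.05 ± 0.16 (SE, edgeR adjusted p = 0.852). With 1 library per group, the difference between the lines, -0.61 with a counting interval of -0.66 to -0.56, was not tested against replicate error.

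LDHA encodes the lactate dehydrogenase subunit that favors lactate formation (chr11:18394388-18408425, plus strand). Control cells of the lines had nearly equal LDHA levels, 996 CPM in CUTLL1 and 1012 CPM in TIB153, and treated cells had 598 and 495 CPM. Both treated libraries lay far below both controls. LDHA was 1.72-fold lower in CUTLL1 (log2 -0.78, -0.84 to -0.73) and 2.13-fold lower in TIB153 (-1.09, -1.15 to -1.04), the lowest ratio of the 10 genes in each line. Across the lines LDHA fell by 0.94 on the log2 scale (SE 0.14, n = 2 lines, edgeR adjusted p = 0.00142). Its 6 processed pseudogene rows held at most 0.811% of its combined reads, the highest share found for any of the 10 genes.

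**Figure D3:**
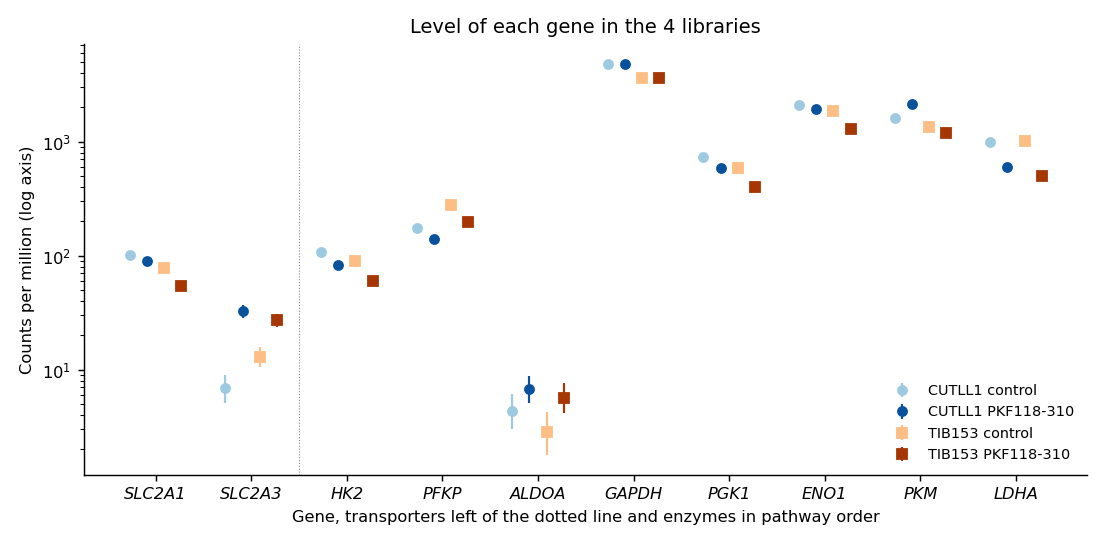
CPM of each gene in the 4 libraries on a log axis, with 95% Poisson intervals as bars (hidden by the symbol where narrow), circles for CUTLL1 and squares for TIB153, and the treated library darker. SLC2A3 lies higher and LDHA lower in both treated libraries, and the ALDOA row lies below 10 CPM throughout.

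With reads divided by exonic length and scaled to the same sum in every library, the order of levels in control CUTLL1 cells was GAPDH (6033), ENO1 (1494), PKM (702), LDHA (602), PGK1 (501), PFKP (137), SLC2A1 (80.2), HK2 (66.6), SLC2A3 (4.16) and ALDOA (4.15). The lane rows of SLC2A3 and ALDOA did not differ beyond counting error there. In control TIB153 cells LDHA (612) stood just above PKM (588), and the rest kept this order. The last place of ALDOA rests on its lane row, with 33 control reads in CUTLL1 and 22 in TIB153. The authors' control columns held 8434 and 8952 reads of ALDOA in CUTLL1, and 6634 and 6622 in TIB153. Its place in the order is therefore uncertain in both lines. With PKF118-310, PKM stood 2.58-fold above LDHA in CUTLL1 and 1.72-fold above it in TIB153. HK2 was less abundant per length than the other widely expressed hexokinase, HK1, in control CUTLL1 cells (ratio 0.678) and about equal to it in control TIB153 cells (1.03). PFKP exceeded the liver isoform PFKL by 2.92-fold and 7.21-fold in these libraries.

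The control libraries were compared to see how far the lines differed without the inhibitor. None of the 10 genes differed by 2-fold. Of all genes, TIB153 exceeded CUTLL1 by 2-fold or more for 9.45% and fell short of it by that much for 6.12%. At these shares few of 10 genes would be expected to differ so far, so the count does not set them apart. SLC2A3 was the nearest to that limit, at 0.88 on the log2 scale (0.39 to 1.40), and PFKP was next at 0.64. GAPDH (-0.41), SLC2A1 (-0.41), PGK1 (-0.36), HK2 (-0.30), PKM (-0.28) and ENO1 (-0.21) were lower in TIB153 beyond counting error. These were 6 of the 10 genes, against 27.6% of all genes, and the 2 higher ones, SLC2A3 and PFKP, compared with 27.8% of all genes. As within the lines, abundant genes passed more readily than scarce ones. LDHA gave 0.00, and ALDOA gave -0.63 (-1.49 to 0.18) from its uncertain lane row. For lack of replicates these differences were not tested.

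Glucose uptake genes were then contrasted with the enzymes. The mean log2 ratio of the 2 transporters was 0.98 in CUTLL1 and that of the 8 enzymes was -0.15, a difference of 1.13 (counting interval 0.89 to 1.37). In TIB153 the means were 0.22 and -0.36, a difference of 0.58 (0.37 to 0.80). With ALDOA left out, a choice made after seeing the data, the enzyme means were -0.26 in CUTLL1 and -0.54 in TIB153. The differences were then 1.24 (1.01 to 1.47) and 0.76 (0.57 to 0.96). SLC2A3 decided the sign and size of the contrast in both lines. Without it the difference was -0.07 (-0.24 to 0.09) in CUTLL1 and -0.21 (-0.41 to -0.01) in TIB153, and without SLC2A3 and ALDOA it was 0.03 (-0.12 to 0.18) and -0.03 (-0.21 to 0.15). The ratio of SLC2A1 alone thus lay within 0.21 of the mean of the enzymes on the log2 scale. With reads summed over each set, which gives weight to SLC2A1 and GAPDH, the difference was 0.20 in CUTLL1 and 0.14 (-0.01 to 0.30) in TIB153.

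The promoters of the 10 genes were examined for short motifs, since TCF factors are what PKF118-310 separates from β-catenin and HIF-1 and MYC are known to bind glycolytic promoters. RefSeq windows of 250 bases before the transcription start (GRCh38.p14) were found for 9 of the 10 genes, 16 windows in all, and SLC2A3 had no entry. The letters ACGTG, the core of a hypoxia response element, were present on either strand in 9 of the 16 windows, beside 18.5% of all 35116 promoter windows. Those 9 windows belonged to 6 of the 9 genes, a count by gene that has no such share beside it. The E-box CACGTG, which MYC family factors bind and which contains ACGTG on both strands, was present in 4 windows of 4 genes and in 6.34% of all windows. The TCF/LEF core CTTTGNT was in 0 of the 16 windows and in 13.2% of all windows, and the AP-1 site TGANTCA was in 0 windows and in 6.57% of all. CTTTGNT ends in T and so cannot match CTTTGAA, the form the paper gives for the Srebf2 promoter. Only 250 bases were searched, so the scan cannot show that TCF sites are absent from these genes. A match is a description of the letters and not a binding site, several windows belong to 1 gene, and windows of ALDOA overlap in part. The 16 windows held 53.2% to 81.6% G and C, a share that was not compared with that of all promoters.

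Shown are the windows of LDHA, the gene with the lowest ratio in both lines, of PGK1, which fell, and of GAPDH, which did not pass the test, with ACGTG on either strand in capitals. They lie at chr11:18394313-18394562 (plus strand), chrX:78103998-78104247 (plus strand) and chr12:6535014-6535263 (plus strand).
LDHA: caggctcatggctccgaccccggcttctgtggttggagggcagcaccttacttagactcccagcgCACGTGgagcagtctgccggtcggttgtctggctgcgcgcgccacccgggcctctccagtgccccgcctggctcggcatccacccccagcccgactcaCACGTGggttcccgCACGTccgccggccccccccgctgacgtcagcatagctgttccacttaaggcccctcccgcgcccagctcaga
PGK1: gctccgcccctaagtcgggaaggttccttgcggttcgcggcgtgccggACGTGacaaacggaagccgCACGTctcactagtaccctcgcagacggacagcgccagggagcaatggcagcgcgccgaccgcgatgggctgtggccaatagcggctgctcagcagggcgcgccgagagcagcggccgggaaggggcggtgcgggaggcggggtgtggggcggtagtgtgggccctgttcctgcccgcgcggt
GAPDH: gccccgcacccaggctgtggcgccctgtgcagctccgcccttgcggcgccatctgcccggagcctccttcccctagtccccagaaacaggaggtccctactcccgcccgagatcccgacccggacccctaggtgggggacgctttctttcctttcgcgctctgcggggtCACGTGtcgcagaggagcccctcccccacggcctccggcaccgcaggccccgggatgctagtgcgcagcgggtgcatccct
This LDHA window held 5 matches on both strands together, of which 2 pairs were the E-box, whereas PGK1 held 2 matches and no E-box. GAPDH held 2 matches that form 1 E-box, so the letters were present both where a gene fell and where its level did not pass the test. The other LDHA window (chr11:18396101-18396350) held none, and neither did the windows of SLC2A1, ENO1 and PKM.

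The remaining genes of glucose use were read from 10 lists of 89 genes, of which 68 were tested, 3 rose and 7 fell, against 6.11% and 6.78% of all genes tested. Isoenzymes of the glycolytic steps and the enzymes of steps not covered above were 20 genes, with 13 tested, of which 1 rose and 4 fell across the lines, beside the same shares of all genes. PFKL fell by 0.70 (SE 0.14, edgeR adjusted p = 0.00733), and triose phosphate isomerase, TPI1, fell by 0.69 (SE 0.13, edgeR adjusted p = 0.00653). HK1 (-0.44) and the phosphoglycerate mutase PGAM1 (-0.46) also fell. The muscle enolase ENO3 rose by 1.31 (SE 0.23, edgeR adjusted p = 0.00426), from 65 to 135 reads in CUTLL1 and from 123 to 409 in TIB153. Aldolase C, ALDOC, had 111 and 337 reads in CUTLL1 and 89 and 117 in TIB153, and did not pass the test (0.92, edgeR adjusted p = 0.0604).

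Among the PFKFB enzymes, which set the level of the phosphofructokinase activator fructose-2,6-bisphosphate, PFKFB3 rose in 1 of 4 tested (0.64 ± 0.16, SE, edgeR adjusted p = 0.0236), with 478 and 991 reads in CUTLL1 and 412 and 565 in TIB153. None of the 5 tested other glucose transporters, the 6 genes of lactate and monocarboxylate export or the 7 genes of the pentose phosphate pathway passed the edgeR test in either direction. In these 3 lists the medians were -0.13, -0.29 and -0.05, and the lactate exporter SLC16A1 stood at -0.05 in CUTLL1 and -0.46 in TIB153. Of 12 genes of pyruvate entry into mitochondria, PDHB (-0.45) and DLAT (-0.44), subunits of pyruvate dehydrogenase, fell.

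Among 9 tested regulators of glucose uptake and glycolysis, AKT1 fell (-0.50 ± 0.12, SE, edgeR adjusted p = 0.0189) and no gene rose. MYC had ratios of -0.22 and -0.21 and HIF1A of -0.03 and -0.38 in CUTLL1 and TIB153, and neither passed the test. TXNIP, an arrestin-like protein that promotes the removal of GLUT1 from the cell surface, had 349 and 641 reads in CUTLL1 but 6 in each TIB153 library, too few there to read a change. Of 12 hypoxia-inducible genes outside glycolysis, VEGFA rose (1.75 ± 0.23, SE, edgeR adjusted p = 0.0020), from 307 to 846 reads in CUTLL1 and from 54 to 301 in TIB153. In CUTLL1, 7 of the 12 were higher beyond counting error, against 23.3% of all genes, among them NDRG1 (2.03) and KDM3A (1.03), and 0 were lower. In TIB153, 4 were higher, against 25.2% of all genes, and 1, P4HA1 (-0.27), was lower. NDRG1 and KDM3A did not pass the test across the lines. In the same libraries SLC2A3 and PFKFB3 rose, and LDHA and PGK1 fell. Whether HIF-1 had a part in any of these changes was not tested.

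**Figure D4:**
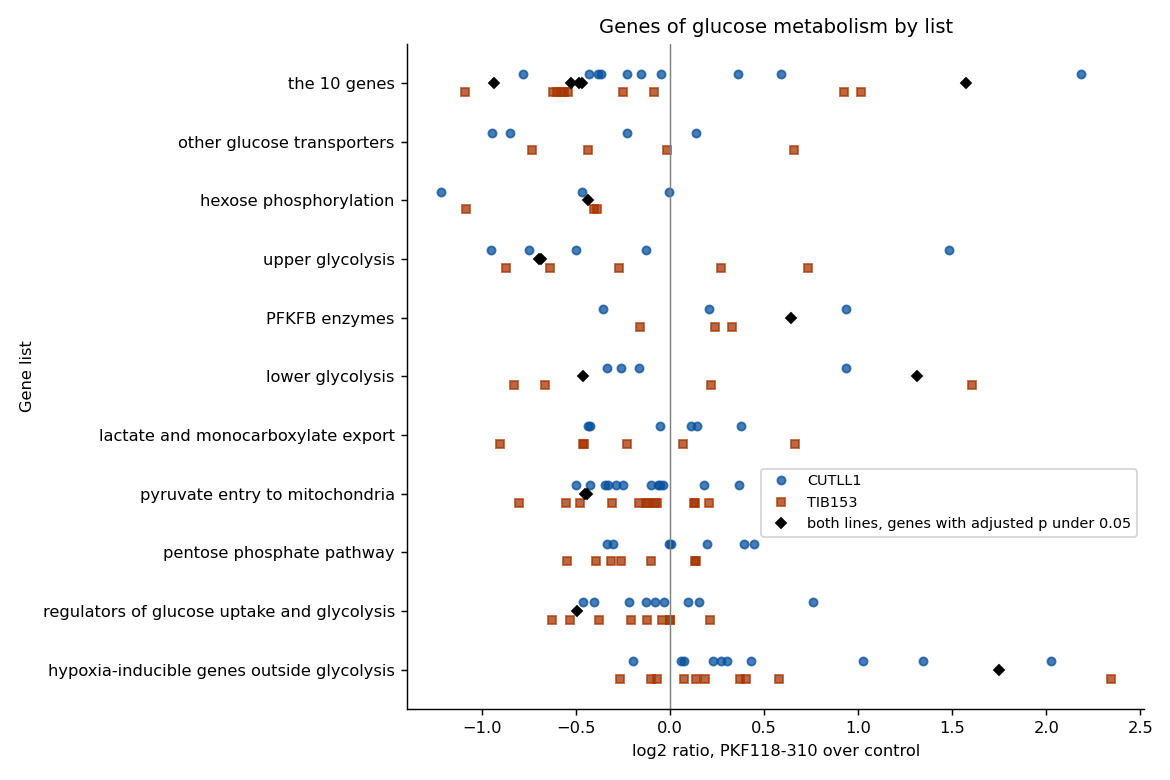
Genes reaching 5 CPM in any library by list, each placed at its log2 ratio of treated over control, with CUTLL1 as circles, TIB153 as squares and the edgeR estimate of genes that passed the test as diamonds. Of the 10 genes at the top, 4 diamonds lie below 0 and SLC2A3 lies above it, and in the hypoxia-inducible list the single diamond is VEGFA.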

How the data were processed

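RNA was measured in 4 libraries of the T-ALL lines CUTLL1 and TIB153, each with and without PKF118-310. Per the labels, poly(T)-enriched RNA was made into libraries with a stranded kit, and the submitters' processing notes name hg38, HISAT2, HTSeq and DESeq2 without versions. Whether reads were counted by strand is not stated in these sources. The lane files deposited by the authors hold raw read counts per gene, and the 2 lanes of each library were summed. The 57189 rows matched the GENCODE release 29 annotation by name and coordinates in 99.28% of cases, and exonic lengths were taken from it. The deposited tables of called genes hold read counts of 2 control and 2 treated columns per line and their mean, a normalized signal computed by the authors over all columns. Size factors were recovered from that mean. Their columns of fold changes and p-values were not used. Each listed gene has an adjusted p under 0.05 in them.

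Treatment was tested with edgeR 4.0.16 (R 4.3.3; quasi-likelihood, robust, TMM scaling, filterByExpr, cell line as a term, Benjamini-Hochberg over 13280 genes, threshold 0.05). The DESeq2 alternatives used version 1.42.0. Within a line, log2 ratios of TMM-scaled counts used a pseudocount of 0.5 and exact binomial 95% intervals, which cover counting error only. CPM values were scaled by total counts. The procedures were tested on simulated data. The 2 lanes agreed within sampling noise. The 10 genes and the gene lists were chosen with earlier results of these data known. All 10 genes were named, and genes of the other lists were named if they reached 5 CPM in any library. Some genes of the lists are not reported here by name. SLC2A14 and AC093512.2 are exceptions named after their values were seen.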

Additional observations from a re-analysis of the deposited data

Results flagged for a closer look

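The genes below were marked because the 95% counting intervals of a gene lay on opposite sides of 0 in the lines. With 1 library per group these differences were not tested against replicate error. The log2 ratio in TIB153 minus that in CUTLL1 was -0.61 for PKM, where it was 0.36 in CUTLL1 and -0.25 in TIB153, and the columns of the authors' tables gave 0.36 and -0.29. For PFKM, the muscle phosphofructokinase, the difference was 1.69, from 122 and 68 reads in CUTLL1 and 29 and 53 in TIB153. The neuronal enolase ENO2 gave 0.38, and the collagen prolyl hydroxylase P4HA1 gave -0.54.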

How the results depend on the processing

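Cell line, as a term of the edgeR fit, paired the control and treated libraries of each line. The number of genes that fell was 4 and became 2 with scaling by total counts (HK2 and LDHA), with the DESeq2 Wald test (LDHA and PGK1) and with lane 2 alone (LDHA and PGK1). Without the cell line term 0 rose and 0 fell, and at an unadjusted p under 0.05 that edgeR fit had 1 of each. SLC2A3 and LDHA passed in each of the other fits run. SLC2A1 (adjusted p = 0.0396) and ENO1 (0.0365) passed edgeR when genes with few reads were kept. Over all genes, 194 rose and 249 fell with the DESeq2 Wald test. At a limit of 1.5-fold, 1 of the 10 genes was lower in CUTLL1, 2 were higher and 3 lower in TIB153, and 2 were higher in the TIB153 control than in the CUTLL1 control. The difference of transporters and enzymes in CUTLL1 and TIB153 was 0.20 and 0.14 with summed reads, 0.62 and 0.26 with HK2 counted among uptake genes, and 2.34 and 1.37 without SLC2A1. It was -0.075 and -0.21 without SLC2A3, and 0.031 and -0.026 without SLC2A3 and ALDOA, an alternative chosen after seeing the data, as were the table counts, which gave ALDOA ratios of -0.21 and -0.46. GAPDH in CUTLL1 was -0.05, and 0.0014 when scaled by total counts. The causes were not tested beyond the genes left out. The other 45 counts and contrasts moved by at most 1.5 times or stayed within the counting interval, among them the 6 genes lower when genes with few reads were kept. The lane row of ALDOA held 22 to 54 reads per library.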
